A study of Mus musculus with 4 samples.

Results

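Transcripts of 8 genes that make, sense and remove sphingosine-1-phosphate (S1P), a signalling lipid, were followed in cultured mouse palatal mesenchymal cells. They were the sphingosine kinase genes Sphk1 and Sphk2, the receptor genes S1pr1, S1pr2 and S1pr3, the S1P lyase gene Sgpl1 and the S1P phosphatase genes Sgpp1 and Sgpp2. Members were all probe sets with one of these names as their only gene symbol in the platform annotation, which gave 16 of the 34945 probe sets with 1 symbol and 8 of 18193 genes.

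The cells came from outbred wild-type embryos at stage E14.0 and were grown as primary cultures. All groups thus share wild-type status and stage, but whether they share the same embryos is unknown here. On 1 array the RNA came from cells given 5Z-7-oxozeaenol (oxozeaenol below), an inhibitor of the Tak1 kinase, for 60 minutes and then TGF-beta2 for 120 minutes. The SB431542 array held cells given SB431542, an inhibitor of the TGF-beta type I receptor kinase, for 60 minutes and then TGF-beta2 for 120 minutes. A further array held cells given TGF-beta2 alone for 120 minutes, and the last held untreated cells. Inhibitor doses, TGF-beta2 concentration, the number of embryos and any pooling of cultures are unknown here, and no array of an inhibitor without TGF-beta2 was analysed here. Each group is 1 array, so every difference is between 2 arrays, without a replicate check, a test or a p-value.

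Sphingosine kinases add a phosphate to sphingosine to make S1P, which leaves the cell through transporters and acts on G protein-coupled receptors that steer migration, the cytoskeleton and vessel growth. S1P lyase splits the lipid irreversibly, and the S1P phosphatases return it to sphingosine. In human fibroblasts, TGF-beta is known to raise the level of SPHK1, the human counterpart of Sphk1.

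Values are deposited intensities on a linear scale, in which a higher number means a brighter probe set. Differences are log2(value + 21.7), where the added constant is the 25th percentile of all intensities, so they understate the change of dim probe sets. A gene was called higher or lower when 2 arrays differed at least 2-fold on that scale. Probe sets were kept when their mean brightness reached the median of all probe sets, an intensity of about 66.1, and the brightest kept probe set stood for its gene among 11744 genes. Of the 16 member probe sets, 13 passed and 3 did not, and Sgpp2 was the 1 gene with no probe set above that level. Each probe set is compared only with itself across arrays.

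Median intensities of the 4 arrays were close, between 66.3 and 72.7, and correlations between pairs of arrays, across kept probe sets rather than replicates, lay between 0.969 and 0.986. Of 12 markers of palatal mesenchyme, 11 were above the filter level, Col1a2 and Vim brightest, while Osr2, a palate transcription factor, read at most 30.4. All 10 macrophage markers were above it, Lyz2 and C1qa brightest, with a summed intensity of 57815 with oxozeaenol, 67993 with SB431542, 66644 with TGF-beta2 alone and 70853 untreated. The 8 epithelial markers above it summed to 6059 with oxozeaenol, 2096 with SB431542, 2107 with TGF-beta2 alone and 2252 untreated. None of the 6 lymphocyte markers on the array, and 2 of 10 endothelial markers (Kdr and Egfl7), passed the filter, and no marker was listed at 0. Of 8 skeletal muscle markers, 3 passed (Actc1, Des and Myod1). The markers at least 2-fold apart in any comparison in which a member was are given next. Krt14, Krt5 and Krt19 were higher, and Des lower, with oxozeaenol than on each of the other arrays. Krt19 (209 with oxozeaenol, at most 81.0 elsewhere) passed the filter only through its oxozeaenol reading, so its difference is tied to how it entered. Cdh1 was higher with oxozeaenol than with SB431542, and Cd14 lower with oxozeaenol than untreated. Shox2 was higher with each inhibitor than with TGF-beta2 alone in its brighter probe set, by 1.24 with oxozeaenol and 1.01 with SB431542. Its other kept probe set gave 0.83 and 0.89, short of 2-fold. In its brightest probe set, Pdgfra was lower with TGF-beta2 alone than untreated, by -1.09, and higher with SB431542 than with TGF-beta2 alone, by 1.16. Its other 2 kept probe sets were level, at -0.06 and 0.07 for TGF-beta2 over untreated and -0.07 and 0.05 for SB431542 over TGF-beta2.

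Among the 7 genes above the filter, Sphk1 had the widest difference in each comparison but that of oxozeaenol over SB431542, where S1pr3 did. Its brighter probe set, 1451596_a_at, read 120 with oxozeaenol, 414 with SB431542, 1928 with TGF-beta2 alone and 790 in the untreated culture. The highest reading was the TGF-beta2 culture and the lowest the oxozeaenol culture, 16.1 times apart in raw intensity, and both inhibitor cultures lay below the untreated one. The dimmer probe set, 1420566_at, read 48.7 with oxozeaenol, 150 with SB431542, 203 with TGF-beta2 alone and 114 untreated. Both placed TGF-beta2 highest and oxozeaenol lowest, but they differed on the SB431542 culture, which was below the untreated culture in the brighter probe set and above it in the dimmer. The SB431542 result for Sphk1 therefore depends on the probe set. In bulk RNA of this kind, fewer cells expressing a gene and less of its RNA per cell cannot be told apart.

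**Figure D1:**
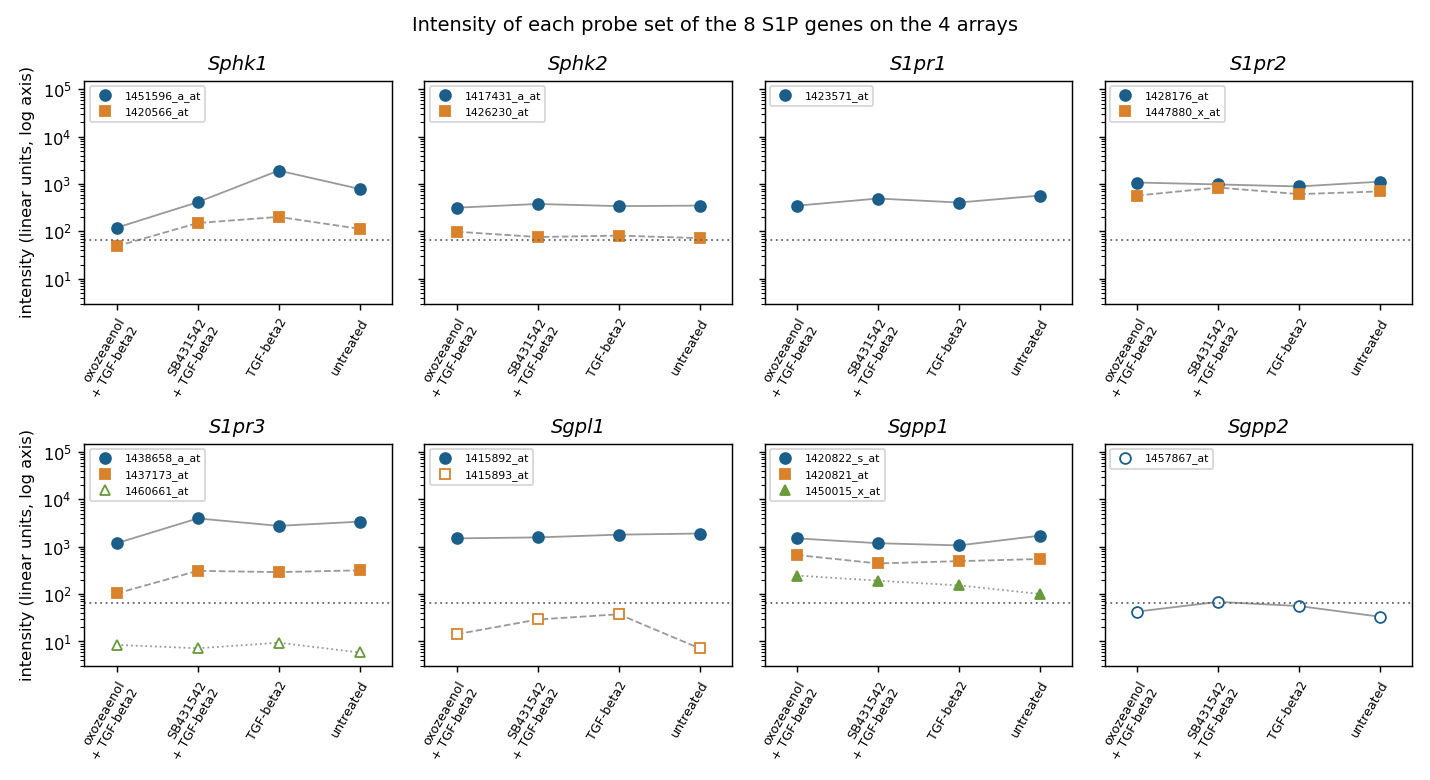
Intensity (linear units on a log axis) of every probe set of the 8 genes on the 4 arrays, with open symbols for probe sets under the filter and the filter level as a dotted line; lines only join the readings of 1 probe set. Sphk1 ranged from 120 to 1928 in its brighter probe set, and S1pr3 was lowest with oxozeaenol in both of its probe sets above the filter, while Sphk2 stayed nearly level.

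With TGF-beta2 against untreated, Sphk1 was 2.40-fold higher in the brighter probe set (1928 against 790, log2 difference 1.26). It was the 1 of 7 members at least 2-fold higher and none was lower, where 0.673% of all genes were higher and 0.366% lower. It ranked number 39 from the highest of 11744 genes. The dimmer probe set gave 203 with TGF-beta2 against 114 untreated, a log2 difference of 0.73, short of 2-fold. When the 2 probe sets were averaged, the log2 difference was 0.9973, just under 2-fold, so the call rests on the brighter one.

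With SB431542 and TGF-beta2 against TGF-beta2 alone, Sphk1 was 4.47-fold lower in the brighter probe set (414 against 1928, log2 difference -2.16). It was number 11 from the lowest of all genes and the 1 member at least 2-fold lower, with no member higher, where 1.18% of all genes were lower and 0.613% higher. In the dimmer probe set the readings were 150 with SB431542 against 203 with TGF-beta2 alone, a log2 difference of -0.38. Averaged over both probe sets, the difference was -1.27, still past 2-fold. Against the untreated culture, SB431542 with TGF-beta2 gave a log2 difference of -0.90 in the brighter probe set and 0.35 in the dimmer, opposite in sign and both within 2-fold. No member was at least 2-fold apart in that comparison, where 0.468% of genes were higher and 0.383% lower. With each array centred on its median, the median of all genes there moved to -0.11, and the counts of 55 higher and 45 lower genes became 39 and 68.

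With oxozeaenol and TGF-beta2 against TGF-beta2 alone, Sphk1 was 13.8-fold lower in the brighter probe set (120 against 1928, log2 difference -3.79). The dimmer probe set was 3.19-fold lower (48.7 against 203, log2 difference -1.67), and its oxozeaenol reading was under the filter level. Sphk1 was number 10 from the lowest of all genes, where 2.17% of genes were at least 2-fold lower and 1.82% higher. Against the untreated culture it was 5.74-fold lower (120 against 790, log2 difference -2.52), number 20 from the lowest, and the dimmer probe set differed by -0.94. Averaged over both probe sets, the log2 differences were -2.73 against TGF-beta2 alone and -1.73 against untreated. On a log2 scale running from 0 for the untreated array to 1 for the TGF-beta2 array, the brighter probe set lay at -1.99 with oxozeaenol and at -0.71 with SB431542. The dimmer probe set was not placed on it, because its TGF-beta2 and untreated readings were less than 2-fold apart. Its SB431542 reading, 150, lay between untreated, 114, and TGF-beta2 alone, 203. The TGF-beta2 array is shared by the comparisons of both inhibitors with it.

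The inhibitors also differed from each other at Sphk1. It was 3.08-fold lower with oxozeaenol than with SB431542 in the brighter probe set (120 against 414, log2 difference -1.62) and 2.44-fold lower in the dimmer one (48.7 against 150, log2 difference -1.29). Both inhibitors were given for 60 minutes, but their doses are not known here, so the sizes are those of 2 cultures and not of matched doses. Sphk1 and S1pr3 were the 2 members at least 2-fold lower on the oxozeaenol array than on the SB431542 array, and none was higher, where 1.30% of genes were lower and 1.51% higher.

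Sphk2, the other sphingosine kinase gene, was nearly level. Its brighter probe set read 318 with oxozeaenol, 380 with SB431542, 342 with TGF-beta2 alone and 351 untreated, a span of 1.20 times between the lowest and the highest. The dimmer one read 98.8 with oxozeaenol, 76.2 with SB431542, 81.6 with TGF-beta2 alone and 72.1 untreated. No log2 difference of Sphk2 exceeded 0.36 in size in any comparison, and with oxozeaenol the 2 probe sets differed in direction. The kinase genes thus stood apart in these arrays, with a log2 difference of -3.79 for Sphk1 and -0.10 for Sphk2 on the same oxozeaenol and TGF-beta2 arrays.

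The sequences before the start sites of Sphk1 and S1pr3 are shown because these were the members at least 2-fold lower with oxozeaenol, and that of Sphk2 because it is the other, nearly level kinase gene. They are 250 bases up to the start site from RefSeq (GRCm38.p6), in which 7 of the 8 members had 12 listed start sites, 5 of them of Sphk1. S1pr1 had no entry. Capitals mark matches to the motifs searched on either strand. These were CAGAC and GTCTAGAC (Smad), TGANTCA (AP-1), TGACGTCA (the cyclic AMP response element), GCGNGGGCG (Egr), GGGCGG (GC box), ACGTG (the core of the hypoxia response element), the CArG box of SRF and the NF-kappaB site. A GC box can share letters with an Egr match, and CACGTG counts as ACGTG on both strands.
Sphk1, most upstream of its listed start sites (chr11:116530850-116531099, plus strand): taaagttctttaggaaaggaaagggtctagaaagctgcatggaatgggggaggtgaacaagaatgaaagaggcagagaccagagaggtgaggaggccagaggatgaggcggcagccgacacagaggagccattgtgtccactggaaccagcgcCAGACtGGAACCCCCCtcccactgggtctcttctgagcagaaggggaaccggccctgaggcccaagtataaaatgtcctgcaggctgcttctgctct
Sphk1, the next start site (chr11:116531587-116531836, plus strand): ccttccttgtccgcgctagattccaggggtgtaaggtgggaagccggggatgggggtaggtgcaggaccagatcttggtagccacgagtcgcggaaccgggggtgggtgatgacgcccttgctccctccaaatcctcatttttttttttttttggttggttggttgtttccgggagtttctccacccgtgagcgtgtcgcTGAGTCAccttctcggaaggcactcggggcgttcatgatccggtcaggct
Sphk2, most upstream of its listed start sites (chr7:45718003-45718252, minus strand): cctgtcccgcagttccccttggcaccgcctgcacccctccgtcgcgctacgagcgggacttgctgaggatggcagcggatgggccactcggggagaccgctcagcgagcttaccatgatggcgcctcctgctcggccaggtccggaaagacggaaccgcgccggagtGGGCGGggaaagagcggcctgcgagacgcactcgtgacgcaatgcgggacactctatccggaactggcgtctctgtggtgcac
S1pr3 (chr13:51408368-51408617, plus strand): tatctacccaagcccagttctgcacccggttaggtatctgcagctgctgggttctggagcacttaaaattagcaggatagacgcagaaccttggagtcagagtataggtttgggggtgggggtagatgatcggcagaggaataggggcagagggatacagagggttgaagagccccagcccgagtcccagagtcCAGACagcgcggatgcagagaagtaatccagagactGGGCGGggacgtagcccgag

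The most upstream Sphk1 window held CAGAC at -97 to -93 from the start site and, on the other strand, an NF-kappaB site at -91 to -82. The next window held TGAGTCA, a match to the AP-1 motif, at -50 to -44. The third Sphk1 window overlaps it and holds the same letters at -124 to -118, and the remaining pair of windows held ACGTG. Among all 32851 windows of this length, 42.2% held CAGAC, 7.25% the NF-kappaB site, 6.75% the AP-1 motif and 16.6% ACGTG. Of the 7 members with a window, Sphk1 was the 1 with the AP-1 motif and the 1 with the NF-kappaB site. It also had 5 of the 12 windows, and so more places for a match than any other member. S1pr3 held CAGAC at -56 to -52 and a GC box at -20 to -15, and the printed Sphk2 window held a GC box at -83 to -78. The second Sphk2 window, not printed, held 2 GC boxes and 1 ACGTG match. GC boxes were in 5 of the 12 member windows, of 4 members (Sphk2, S1pr3, Sgpl1 and Sgpp2), against 32.7% of all windows. ACGTG was also in 5 of the 12, of 4 members (Sphk1, Sphk2, Sgpl1 and Sgpp2). Overlapping Sphk1 windows count the same letters more than once. S1pr2 was the 1 member with TGACGTCA, held by 1.55% of windows. GTCTAGAC, the Egr motif and the CArG box were in no member window, against 0.167%, 4.70% and 1.47% of all windows. These matches describe letters in a window and not bound sites.

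S1pr3 encodes a receptor that couples to several classes of G protein and is known in fibroblasts and smooth muscle. Its brightest probe set, 1438658_a_at, read 1186 with oxozeaenol, 3971 with SB431542, 2766 with TGF-beta2 alone and 3395 untreated. A further probe set, 1437173_at, read 103 with oxozeaenol, 310 with SB431542, 292 with TGF-beta2 alone and 318 untreated. In both, the oxozeaenol culture was lowest. The other 3 were close to each other in 1437173_at and ranged from 2766 to 3971 in 1438658_a_at. The last probe set, 1460661_at, read between 5.87 and 9.41 on all arrays and was far under the filter level.

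S1pr3 was 2.31-fold lower with oxozeaenol than with TGF-beta2 alone in the brightest probe set (1186 against 2766, log2 difference -1.21) and 2.51-fold lower in the next (103 against 292, -1.33). Against the untreated culture the same probe sets were 2.83-fold lower (1186 against 3395, -1.50) and 2.72-fold lower (103 against 318, -1.44). The 2 probe sets gave nearly the same size of difference, unlike those of Sphk1. S1pr3 ranked number 173 from the lowest of 11744 genes against TGF-beta2 alone and number 68 against untreated. Sphk1 and S1pr3 were the 2 of 7 members at least 2-fold lower in each of these comparisons, with none higher. The shares of all genes were 2.17% lower and 1.82% higher against TGF-beta2 alone, and 1.51% lower and 1.49% higher against untreated. The split against untreated, 177 lower and 175 higher genes, became 223 and 137 with each array centred on its median.

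With SB431542, S1pr3 was not at least 2-fold apart from TGF-beta2 alone or untreated. Its brightest probe set read 3971 with SB431542 against 2766 with TGF-beta2 alone, a log2 difference of 0.52, and the next read 310 against 292, a difference of 0.08. With TGF-beta2 alone against untreated the log2 differences were -0.29 and -0.12. Between the inhibitors, S1pr3 was 3.30-fold lower with oxozeaenol (1186 against 3971, -1.72), and 2.66-fold lower in the next probe set (103 against 310, -1.41). On the same arrays the macrophage marker sum was lowest with oxozeaenol, at 57815 against 66644 with TGF-beta2 alone, and the epithelial marker sum highest, at 6059 against 2107. The epithelial markers did not rise evenly, and 2 keratins, Krt14 and Krt5, rose most. Krt14 read 2218 with oxozeaenol, 275 with SB431542, 295 with TGF-beta2 alone and 141 untreated. Krt5 read 1383, 258, 233 and 195 in the same order. Of the 8 epithelial markers, 3 passed 2-fold for oxozeaenol over TGF-beta2 alone and 5 did not, but all 8 were above 0, with a median of 0.78. The 2 under the filter, Trp63 and Esrp1, also read highest with oxozeaenol, at 128 and 92.7, against at most 52.0 and 20.0 elsewhere. For oxozeaenol over untreated, 6 of the 8 were above 0 and 2 below, and Cldn4 was level at -0.02. Epcam gave -0.01 in its brighter probe set and 0.96 in the other. The part of these cell types in the S1pr3 and Sphk1 differences was not tested.

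**Figure D2:**
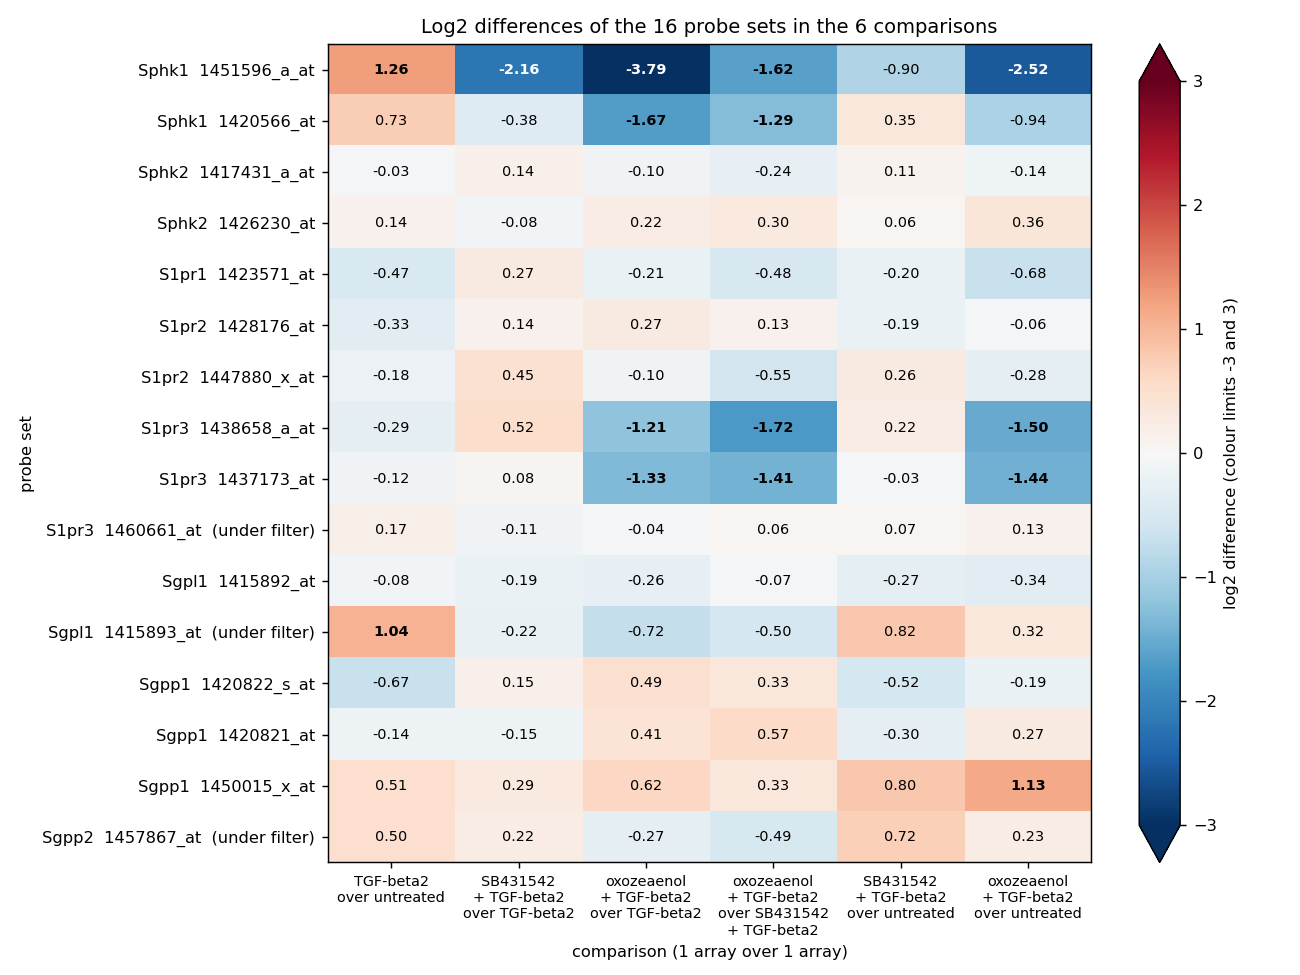
Log2 difference of each of the 16 probe sets (rows) in each of the 6 comparisons (columns), with red for higher and blue for lower on the array named first and bold numbers for differences of at least 2-fold. The 2 Sphk1 and the 2 brighter S1pr3 probe sets were all at least 2-fold lower with oxozeaenol than with TGF-beta2 alone or SB431542, and the column of SB431542 over TGF-beta2 alone held a single such value, -2.16 for Sphk1.

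The remaining receptors were within 2-fold in every comparison. S1pr1, a receptor best known from endothelial cells and lymphocytes, read 350 with oxozeaenol, 495 with SB431542, 408 with TGF-beta2 alone and 573 untreated. The untreated culture was highest and the oxozeaenol culture lowest, with a log2 difference of -0.68 between them, and TGF-beta2 alone differed from untreated by -0.47. Of the 10 endothelial markers, 8 were under the filter, with no reading of these above 71.1, while Kdr and Egfl7 passed it. Which cells the S1pr1 signal came from was not tested. S1pr2, a receptor known to slow cell migration, read 1079 with oxozeaenol, 984 with SB431542, 891 with TGF-beta2 alone and 1126 untreated. Its second probe set, 1447880_x_at, read 572 with oxozeaenol, 846 with SB431542, 614 with TGF-beta2 alone and 700 untreated. The probe sets of S1pr2 thus differed in direction between the inhibitors, by 0.13 and by -0.55, and no direction is given for it there. In Affymetrix naming, the ending x_at marks probe sets with probes that may match other transcripts.

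The genes of the enzymes that remove S1P were within 2-fold in every comparison in their brightest probe sets. Sgpl1, the lyase, read 1505 with oxozeaenol, 1578 with SB431542, 1804 with TGF-beta2 alone and 1905 untreated in its bright probe set, and no difference exceeded 0.34 in size. Its other probe set, 1415893_at, read 14.2 with oxozeaenol, 29.1 with SB431542, 37.5 with TGF-beta2 alone and 7.14 untreated, all under the filter level. The log2 difference of 1.04 with TGF-beta2 in that dim probe set was not seen in the bright one, which gave -0.08.

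Sgpp1, the broadly expressed S1P phosphatase, had 3 probe sets above the filter, which did not give the same picture. The brightest, 1420822_s_at, read 1505 with oxozeaenol, 1190 with SB431542, 1068 with TGF-beta2 alone and 1717 untreated. The next, 1420821_at, read 670 with oxozeaenol, 445 with SB431542, 497 with TGF-beta2 alone and 552 untreated. The dimmest, 1450015_x_at, read 247 with oxozeaenol, 192 with SB431542, 153 with TGF-beta2 alone and 101 untreated. With TGF-beta2 against untreated the brightest ranked number 176 from the lowest of 11744 genes, but the 3 gave log2 differences of -0.67, -0.14 and 0.51, so the direction for Sgpp1 is not settled by these arrays. With oxozeaenol against TGF-beta2 alone all 3 were higher, by 0.49, 0.41 and 0.62, each within 2-fold. The single Sgpp1 value past 2-fold was that of the x_at probe set with oxozeaenol against untreated, 1.13, where the brightest gave -0.19. Sgpp2, the second phosphatase, read 42.8 with oxozeaenol, 68.7 with SB431542, 56.0 with TGF-beta2 alone and 33.3 untreated, too dim for a call.

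Read together by role, oxozeaenol with TGF-beta2 left 1 of 2 kinase genes and 1 of 3 receptor genes at least 2-fold lower than TGF-beta2 alone, and neither of the 2 removal enzyme genes above the filter. Of all genes, 2.17% were lower in that comparison. The median log2 difference of the 7 members was -0.29 with TGF-beta2 over untreated, 0.14 with SB431542 over TGF-beta2 alone and -0.21 with oxozeaenol over TGF-beta2 alone. Medians of all 11744 genes were -0.03, 0.03 and 0.05 in the same order. With TGF-beta2, 6 of the 7 were below untreated, none by 2-fold, and Sphk2 among them turned sign when probe sets were averaged. All 7 were lower with oxozeaenol than untreated, from -0.06 for S1pr2 to -2.52 for Sphk1, but 5 of them were within 2-fold. The sign of this difference turned for Sphk2 and Sgpp1 when probe sets were averaged. The median of all 11744 genes in that comparison was 0.03, and the share of all genes below 0 is not given here.

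**Figure D3:**
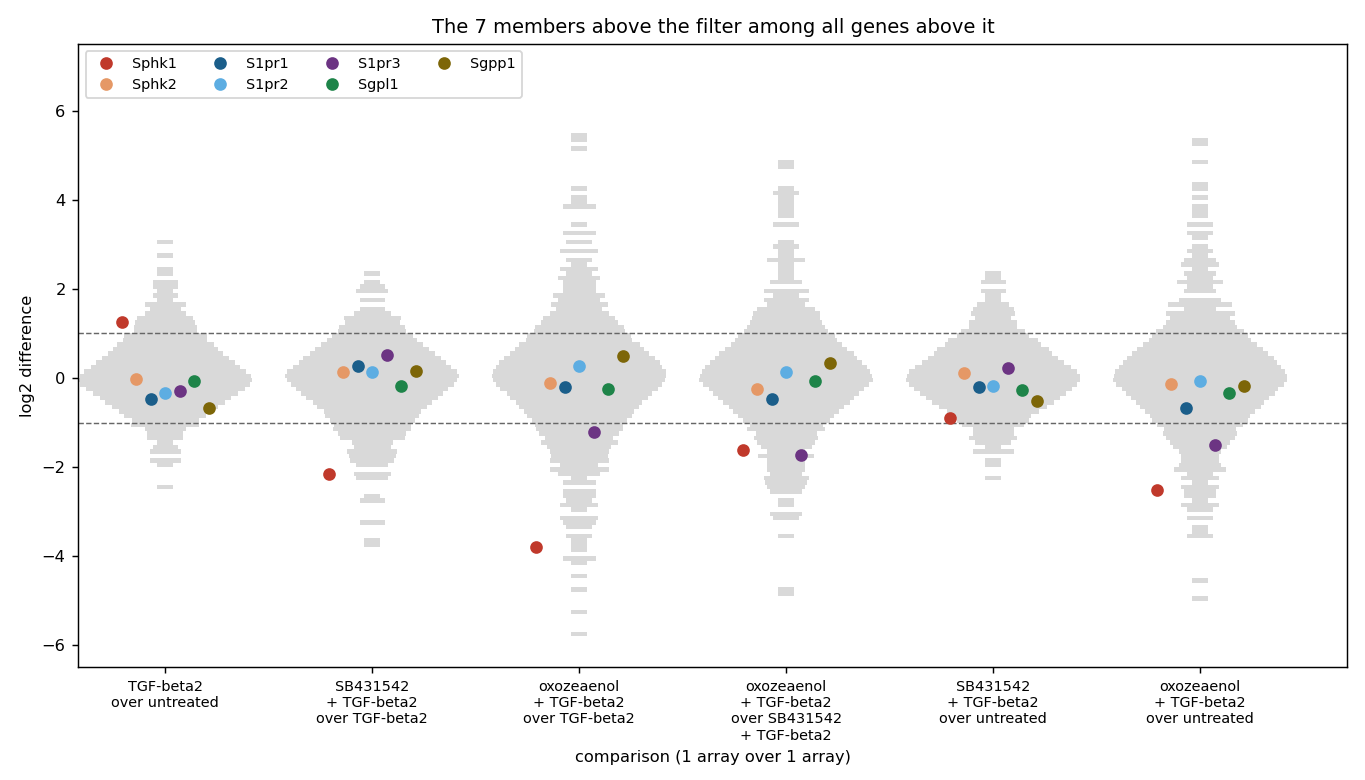
Log2 differences of the 7 members above the filter (coloured points) over all 11744 genes above it (grey, width on a log scale of gene count) in the 6 comparisons, with dashed lines at 2-fold. Sphk1 lay outside 2-fold in 5 of the 6 comparisons and S1pr3 in the 3 with oxozeaenol as the array named first.

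The genes most like Sphk1 were found by the distance between centred log2 profiles over the 4 arrays, where 0 is an identical profile. The nearest 8 were Il6 (0.38), Dusp4 (0.55), Hbegf (0.57), Rnf19b (0.60), Errfi1 (0.71), Egr3 (0.79), Il11 (0.80) and Meox1 (0.80). Il6 and Il11 are cytokines, Hbegf is a ligand of the EGF receptor and Errfi1 an inhibitor of that receptor, Dusp4 is a phosphatase of MAP kinases, Egr3 and Meox1 are transcription factors and Rnf19b is a ubiquitin ligase. Il6, the nearest, read 66.3 with oxozeaenol, 210 with SB431542, 1095 with TGF-beta2 alone and 331 untreated. Hbegf read 640 with oxozeaenol, 3488 with SB431542, 10779 with TGF-beta2 alone and 4733 untreated. Both were highest with TGF-beta2 alone and below the untreated culture with each inhibitor, as in the brighter Sphk1 probe set by which they were chosen. The dimmer Sphk1 probe set was above the untreated culture with SB431542. The nearest member to Sphk1 was S1pr3, at a distance of 2.16, and Sphk2 lay at 2.70.

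The nearest 5 genes to S1pr3 were Cebpd (0.11), Trib2 (0.17), Tnfsf11 (0.19), Fgf7 (0.22) and Gm3764 (0.23). Cebpd encodes a transcription factor of acute responses, Trib2 a pseudokinase, Tnfsf11 the osteoclast-inducing cytokine RANKL and Fgf7 a growth factor for epithelium. Cebpd read 598 with oxozeaenol, 2010 with SB431542, 1309 with TGF-beta2 alone and 1788 untreated. Its lowest reading with oxozeaenol and highest with SB431542 are those of the brightest S1pr3 probe set, by which it was chosen. In the S1pr3 probe set 1437173_at the untreated culture read highest, at 318 against 310 with SB431542. The likeness is over 4 arrays only.

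**Figure D4:**
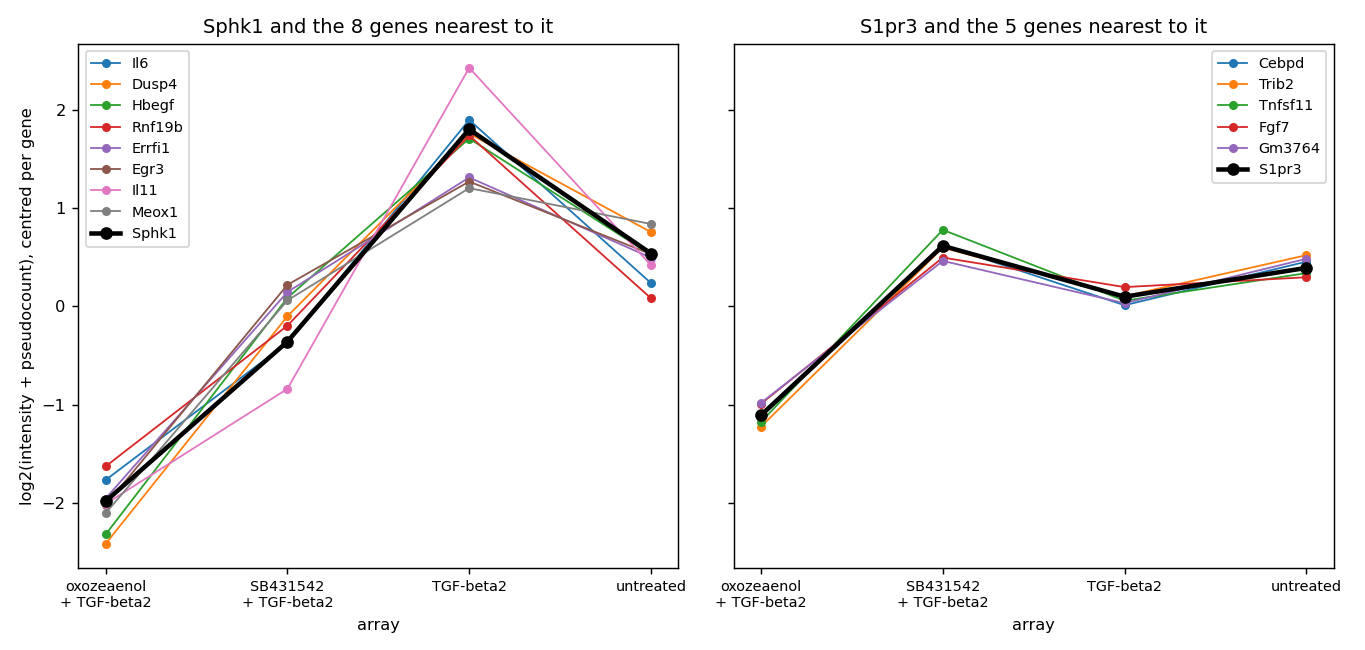
Centred log2(intensity + 21.7) on the 4 arrays for Sphk1 with its 8 nearest genes (left) and S1pr3 with its 5 nearest (right), with the member in black and lines joining the readings of 1 gene. The Sphk1 group peaked with TGF-beta2 alone, and the S1pr3 group was set apart by low values with oxozeaenol.

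Around these members, 58 further genes of sphingolipid metabolism, S1P transport and lysolipid receptors were listed, of which 50 were matched on the array and 40 passed the filter. With TGF-beta2 over untreated, 0 of 40 were at least 2-fold higher and 1 lower, against 0.673% and 0.366% of all genes. With SB431542 over TGF-beta2 alone 1 was higher and 0 lower, against 0.613% and 1.18%. With oxozeaenol over TGF-beta2 alone 1 was higher and 0 lower, against 1.82% and 2.17%. With oxozeaenol over SB431542 there were 0 higher and 1 lower, against 1.51% and 1.30% of all genes. With oxozeaenol over untreated there were 1 and 0, against 1.49% and 1.51%, and with SB431542 over untreated 0 and 0, against 0.468% and 0.383%. Their medians in the first 3 of these comparisons were -0.07, 0.07 and 0.04, against -0.03, 0.03 and 0.05 for all genes.

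Making ceramide, the precursor of sphingosine, involved 9 measured genes, all within 2-fold in every comparison. The desaturase gene Degs1, the brightest of them, read 9957 with oxozeaenol, 10762 with SB431542, 10408 with TGF-beta2 alone and 10025 untreated. Cers5, Cers2 and Cers6, ceramide synthase genes, had log2 differences between -0.43 and 0.33 over all comparisons. Cers4, a further ceramide synthase gene named after its values were seen, differed by 0.92 with oxozeaenol over untreated and by 0.79 over TGF-beta2 alone, while its other probe set gave 0.35 and 0.38. The 4 measured ceramidase and ceramide kinase genes (Asah1, Cerk, Acer3 and Asah2) were within 2-fold, with Cerk lower by -0.71 with SB431542 than with TGF-beta2 alone. Of 11 genes of sphingomyelin and glucosylceramide turnover, Smpd3, a neutral sphingomyelinase gene, was the 1 past 2-fold, at 124 with oxozeaenol against 45.9 untreated (log2 difference 1.11). It read 72.7 with SB431542 and 58.4 with TGF-beta2 alone, and passed the filter only through its oxozeaenol reading, so this difference is tied to how it entered. Sgms1, Smpd1 and Smpdl3a, among the 4 brightest of that list, were within 2-fold. Cert1, a ceramide transfer protein gene and the brightest, read 2539 with oxozeaenol, 2982 with SB431542, 2810 with TGF-beta2 alone and 1707 untreated. Its log2 difference with TGF-beta2 over untreated was 0.71, but 0.00 in its other probe set, at 257 against 256.

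Among genes of S1P transport and of breakdown outside the cell, Plpp3 was the 1 past 2-fold. The 4 measured export and carriage genes, Abca1, Abcc1, Abcg2 and the S1P transporter gene Spns2, were within 2-fold in all comparisons. Spns2 read 101 with oxozeaenol, 97.2 with SB431542, 120 with TGF-beta2 alone and 119 untreated. Plpp3, a phosphatase of extracellular lipid phosphates, read 1414 with oxozeaenol, 3453 with SB431542, 2076 with TGF-beta2 alone and 2395 untreated. It was at least 2-fold lower with oxozeaenol than with SB431542, by -1.28, and its other probe set gave -1.13. Its relatives Plpp1 and Plpp2, and Aldh3a2, which oxidises the aldehyde that the lyase releases, were within 2-fold. The kinase regulators measured, Ppp2ca, Fhl2, Cib1 and Traf2, were also within 2-fold. S1pr4, a receptor of blood cells, read 130 with oxozeaenol, 92.1 with SB431542, 111 with TGF-beta2 alone and 134 untreated, and S1pr5 read at most 3.29.

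Among receptors for the related lipid lysophosphatidic acid (LPA), Lpar4 read lowest where Sphk1 read highest. It read 873 with oxozeaenol, 675 with SB431542, 296 with TGF-beta2 alone and 646 untreated. The TGF-beta2 culture was lowest, with log2 differences of 1.49 and 1.13 for oxozeaenol and SB431542 over it and -1.07 for it over untreated. Its other 2 probe sets had the same signs, at 1.27 and 0.87 for oxozeaenol, 0.76 and 0.73 for SB431542 and -0.88 and -0.39 for TGF-beta2 over untreated, mostly short of 2-fold. Lpar1 stayed between 2032 and 2130 on the 4 arrays, and Lpar6 was within 2-fold.

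**Figure D5:**
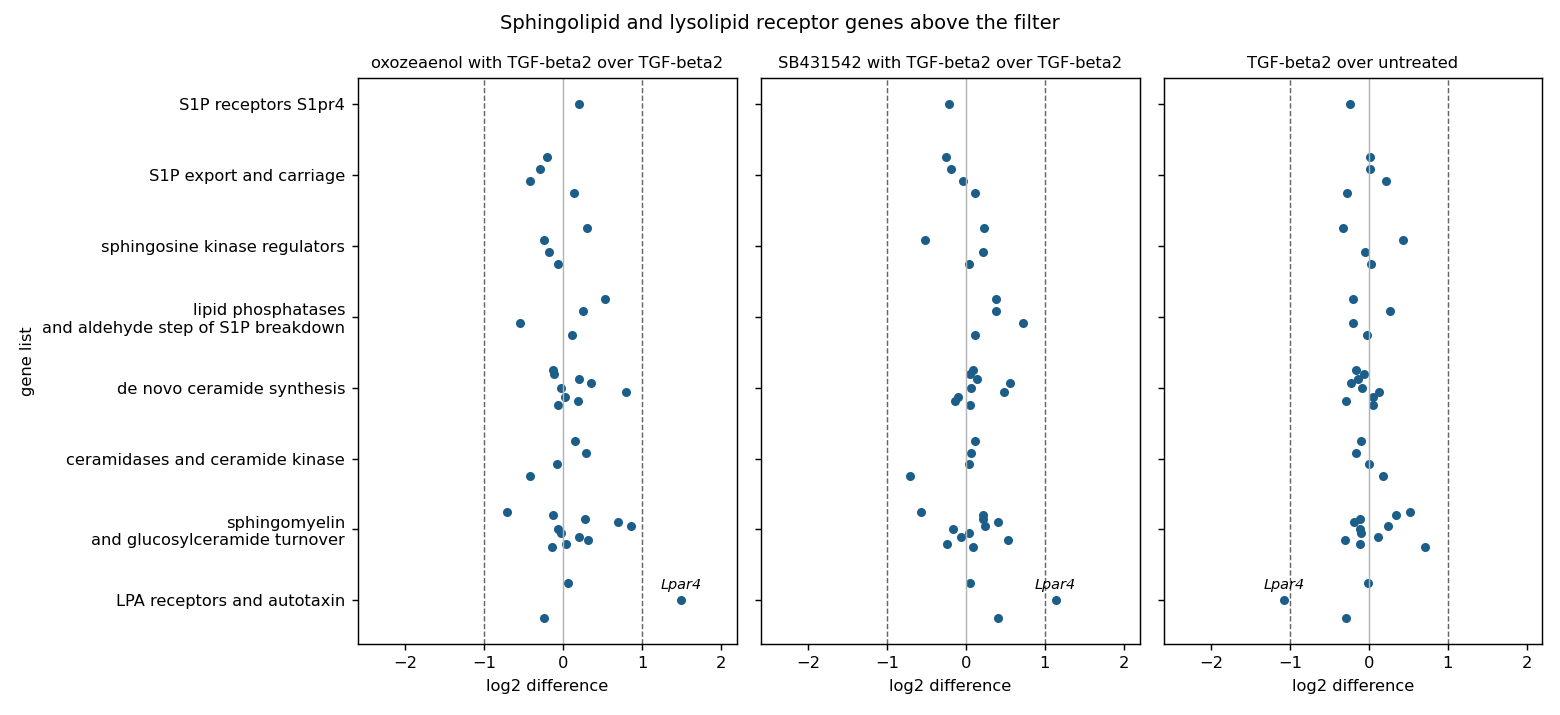
Log2 differences of the 40 listed genes above the filter, 1 point per gene, by list (rows), for oxozeaenol with TGF-beta2 over TGF-beta2 (left), SB431542 with TGF-beta2 over TGF-beta2 (middle) and TGF-beta2 over untreated (right), with dashed lines at 2-fold. Lpar4 is the 1 point past 2-fold in each of these 3 comparisons.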

How the data were processed

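RNA of 4 cultures, 1 array each, was measured on Affymetrix 3′ expression arrays from 500 ng of total RNA per culture, per the labels' protocols. The authors deposited linear intensities for 45101 probe sets. The submitters' processing notes name GCOS, Affymetrix's analysis program; no source used here gives its version, summary algorithm or settings. Each array had a mean of 500.0 without the lowest and highest 2% of probe sets, so a scaling to a shared mean had been applied, under which each difference is relative to the average transcript.

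Gene symbols came from the platform annotation, and 64 control probe sets were left out. Intensities were converted to log2(value + 21.7), and probe sets were kept when their mean over the 4 arrays reached the median, about 66.1 as an intensity. Named genes were the 8 members, listed genes at least 2-fold apart, up to 4 of the brightest per list, 8 genes nearest to Sphk1 and 5 nearest to S1pr3, and markers that were brightest or 2-fold apart. The members and lists were chosen with earlier results of these data known. A further list of signalling genes is not reported here. Alternatives were 2 other pseudocounts, no filter and a stricter one, 2 scalings and averaging of probe sets. Counting was tested on simulated data. The number of arrays limits the precision. Python 3.11.15 and pandas 2.3.3 were used.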

Additional observations from a re-analysis of the deposited data

How the results depend on the processing

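Over 7 alternatives, 41 of 42 member differences stayed on the same side of 2-fold and 35 kept their sign throughout; the others were values of Sphk2, S1pr2 and Sgpp1 within 2-fold. Averaging probe sets took Sphk1 with TGF-beta2 over untreated to 0.9973, so that 0 members were 2-fold higher. The cause is the dimmer probe set entering the mean. Sphk1 with oxozeaenol over TGF-beta2 alone ranged from -3.95 to -2.73, and S1pr3 from -1.27 to -1.17. The stricter filter left out Sphk2. No paired analysis was possible because each group holds 1 array, and for the same reason no array could be left out.

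Counts of all genes are given as higher and lower for TGF-beta2 over untreated, SB431542 over TGF-beta2, oxozeaenol over TGF-beta2, oxozeaenol over SB431542, SB431542 over untreated and oxozeaenol over untreated. With no filter, which admits dim genes, they were 350 and 278, 463 and 405, 588 and 511, 527 and 473, 457 and 258, and 565 and 359. With the stricter filter, which tests fewer genes, they were 30 and 17, 22 and 62, 64 and 149, 46 and 85, 8 and 6, and 47 and 99. With the pseudocount at the median they were 50 and 21, 31 and 86, 141 higher, 110 higher, 25 and 16, and 113 higher, with the other counts within 1.5 times. Median centring gave 68 lower genes for SB431542 over untreated. It lowers all genes in that comparison by the same amount, and the median of all genes moved from -0.01 to -0.11.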
